A study of Mus musculus with 31 samples.

Results

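The Mir142 interval is a stretch of 420 kb on mouse chromosome 11 (mm9, chr11:87200001-87620000) that holds the microRNA gene Mir142 near position 87570000 and, at chr11:87230001-87290000, a run of 6 neighbouring 10-kb bins. The interval was chosen by the measured Rad21 coverage of splenic B cells, which was lower in stimulated than in unstimulated cells, so those values are given as a description with no test. Its members are the peaks that overlap it: 4798 of the 17061930 deposited peaks, of which 3048 were NIPBL peaks and 1750 were Rad21 peaks. The position of Mir142 was taken as given and was not checked against an mm9 gene annotation.

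Chromatin immunoprecipitation with sequencing (ChIP-seq) was carried out in AID-deficient mouse B cells of the C57BL/6 strain; AID is the enzyme that starts class switch recombination, and every group lacked it. The design text asks how cohesin-driven loop extrusion takes part in switching of the antibody heavy chain class. Mature splenic B cells were unstimulated or stimulated with anti-CD40 and IL-4 for 48 h, and both antibodies had 3 libraries of each. CH12F3 is a mouse B lymphoma line, titled CH12F3NCdel in these samples, and it was unstimulated or stimulated with anti-CD40, IL-4 and TGF-β for 24 h. It gave 2 NIPBL libraries of each kind, and for Rad21 it gave 3 unstimulated and 4 stimulated libraries. A set of 3 stimulated Rad21 libraries is titled i3CBEs, a name the labels do not expand; their source is CH12F3, treated in the same way. For the Rad21 samples of CH12F3 and i3CBEs, the cell type label says splenic B cells while title and source name say otherwise, and the titles were followed. Peak lists hold no expression values, so labelled cell types could not be checked against marker genes. Whether replicates are different animals or cultures is not given, so a p-value here reflects the spread of these samples alone, and that spread may be technical.

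NIPBL loads the ring-shaped cohesin complex onto chromosomes and drives it as it extrudes DNA loops, and Rad21 is the subunit that closes the ring. Extruding cohesin commonly halts where CTCF is bound, so Rad21 peaks mark such anchors as well as active enhancers and promoters where cohesin is loaded. Mir142 encodes a microRNA precursor that is abundant across blood cells, where its products restrain many messenger RNAs by pairing through the seed near their 5′ end.

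Sequences of the Mir142 products are shown because the gene is the landmark of the interval. All are from RefSeq (GRCm38.p6), where 1 of 1 member matched, and none is read from these samples. In the hairpin, printed 5′ to 3′ over its 64 bases, capitals mark both mature arms; in the mature sequences, capitals mark the seed, bases 2 to 8.
Mir142 hairpin: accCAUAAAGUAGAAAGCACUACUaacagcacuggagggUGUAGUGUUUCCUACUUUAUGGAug
mmu-miR-142a-5p: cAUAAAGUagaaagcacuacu
mmu-miR-142a-3p: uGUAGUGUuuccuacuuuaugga
mmu-miR-142b: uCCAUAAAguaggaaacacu

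The 5p arm is hairpin bases 4 to 24 and the 3p arm is bases 40 to 62. Mir142b lies on the opposite strand, and its 20-base product is the reverse complement of hairpin bases 43 to 62, so all its bases can pair with the 3p arm. Each of the 3 seeds occurs once among the 1738 mature entries of the table. In RefSeq's gene order Mir142 and Mir142b lie between Supt4a, a transcription elongation factor gene, and Tspoap1, which encodes a protein that binds a benzodiazepine receptor. On the far side of Supt4a come Rnf43 (a ubiquitin ligase gene that dampens Wnt signalling), Hsf5, Mtmr4 (a lipid phosphatase gene), Septin4, Tex14 (a germ cell bridge gene) and Rad51c, a homologous recombination gene. Beyond Tspoap1 come the peroxidase genes Mpo, Lpo and Epx and the ciliary gene Mks1. Inside Tex14 the table lists 7 small nuclear RNA entries, 4 of them Rnu3b genes, which are near-identical copies. The genes were not placed in bins, as the table is of another build. If these copies lie in the run, reads could be shared among them and bear on the peaks there, which was not tested.

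NIPBL lists held 890499 to 1332862 peaks and Rad21 lists 42659 to 1236385, with no read counts, so depth is unknown. To compare lists of unequal length, the 20000 peaks of each with the highest -log10 p, called top peaks below, were used, and the value of a 10-kb bin is the percent of its bases that they cover. Only 341 of the 4798 members were top peaks, 11 to 21 per NIPBL library and 7 to 20 per Rad21 library. The -log10 p of the last top peak in the splenic Rad21 lists ranged from 6.37 to 14.6 in unstimulated and from 5.93 to 14.6 in stimulated libraries. Stimulated splenic Rad21 replicate 2 stood apart in its share of peaks on the Y chromosome, 0.0103%, beside 0.0229% to 0.0434% in the other splenic Rad21 lists; values without it are given below.

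Top peaks covered some base of 30 of the 42 bins in at least 1 library, 24 bins in NIPBL and 23 in Rad21 libraries. Merging overlapping top peaks of all libraries gave 52 sites, of which 24 were held by NIPBL libraries only, 16 by Rad21 libraries only and 12 by both, and 19 rested on 1 library. A site is held by a library when one of its top peaks overlaps it. Blocks around Mir142 and along the run held NIPBL in every group and Rad21 in unstimulated spleen, 5 isolated sites held Rad21 in every library, and other sites were held by NIPBL only or by some groups.

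**Figure D1:**
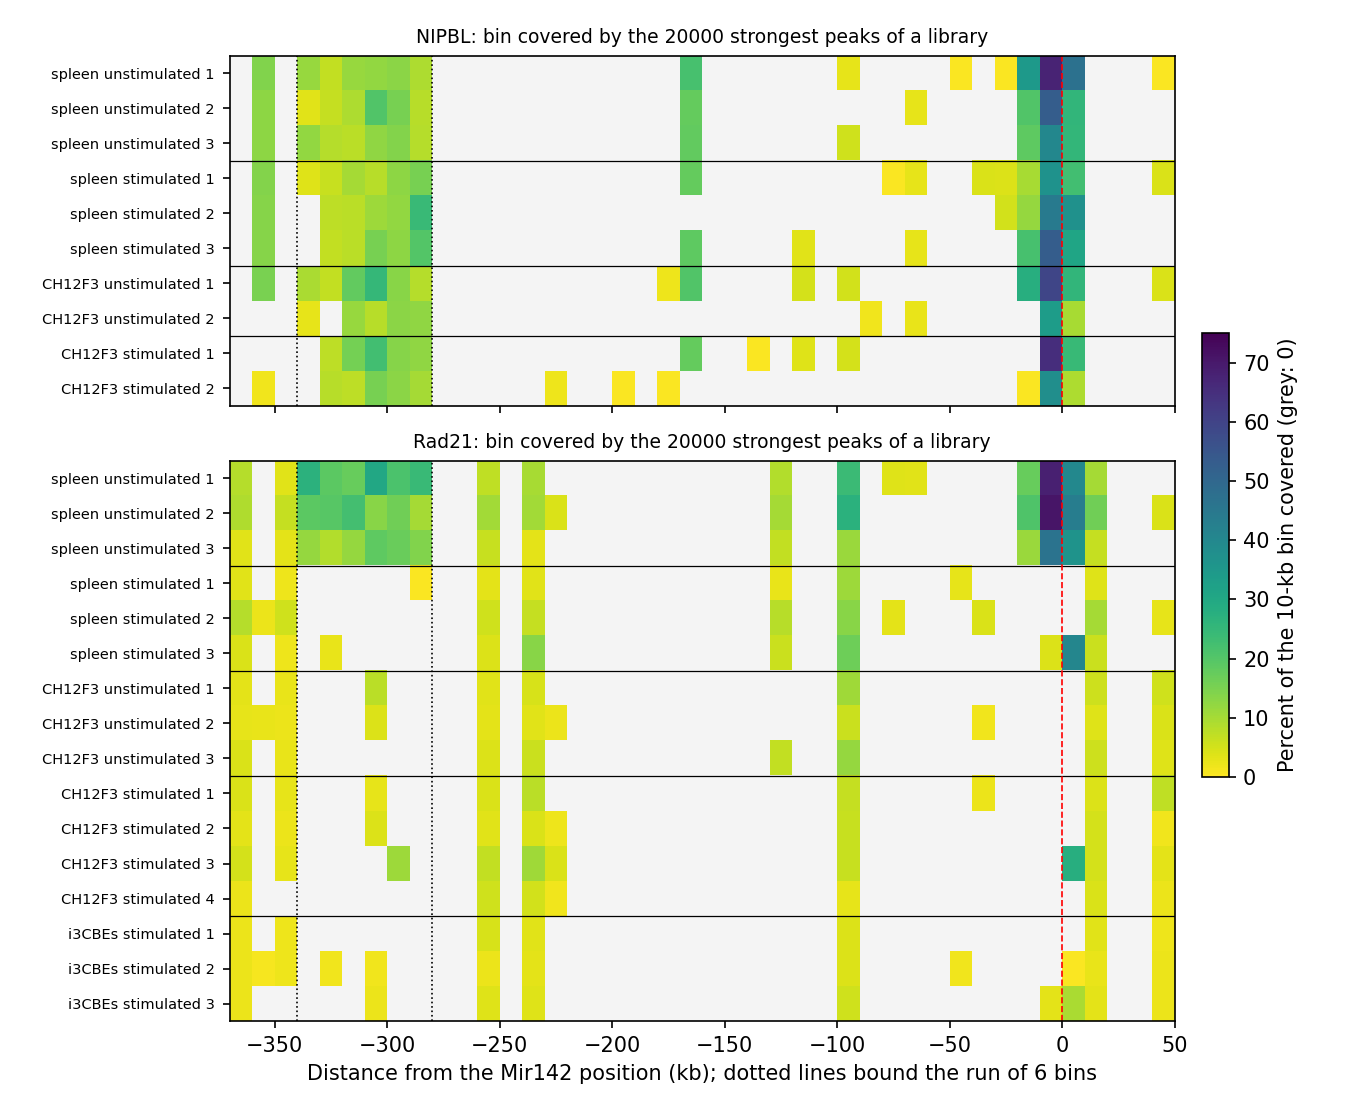
Percent of each 10-kb bin covered by the 20000 strongest peaks of each library (colour; grey is 0), for 10 NIPBL libraries (upper panel) and 16 Rad21 libraries (lower panel), by distance in kb from the Mir142 position (red line). In the 3 unstimulated splenic libraries Rad21 covers part of each of the 6 bins between the dotted lines and of both bins beside the Mir142 position. NIPBL is found at both places in every group.

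At Mir142, Rad21 covered a wide block in unstimulated splenic B cells. In the bin that ends at the given position (87560001-87570000, called the Mir142 bin) Rad21 top peaks covered 68.4%, 70.8% and 46.4% in unstimulated replicates 1 to 3. In stimulated spleen the same bin was covered to 0%, 0% and 4.10%. The groups did not overlap, with means of 61.8% ± 13.5 (SD, n = 3) and 1.37% ± 2.37 (SD, n = 3). In the next bin (87570001-87580000) coverage was 40.0%, 43.2% and 36.4% in unstimulated replicates, and 0%, 0% and 40.5% in stimulated replicates. Here the groups overlapped, because stimulated replicate 3 lay as high as the unstimulated libraries.

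Each unstimulated splenic library carried 1 continuous Rad21 peak across the boundary of these bins. It spanned chr11:87566992-87573998 in replicate 1 (7007 bp, fold enrichment 9.66, rank 14871 in its list), and chr11:87567189-87574319 in replicate 2 (7131 bp, fold 9.63, rank 13762). In replicate 3 it spanned chr11:87567862-87573645 (5784 bp, fold 5.74, rank 12248). Fold enrichment is the authors' value of a peak in its own list. Rank is the place of the peak when that list is ordered by -log10 p. Neither measures a change between lists. These peaks were wide but not strong in their lists, all ranking in the lower part of the top 20000.

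The stimulated splenic libraries held Rad21 peaks at the same place, most of them below the top 20000. Replicate 1 had a peak at chr11:87570596-87574179 (fold 4.35, rank 21547), and replicate 2 one of 8164 bp at chr11:87567025-87575188 (fold 5.76, rank 28369). In replicate 3 the peak at chr11:87569591-87574053 (fold 6.22, rank 18203) was a top peak. So the 0% of replicates 1 and 2 means no top peak, not no deposited peak.

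**Figure D2:**
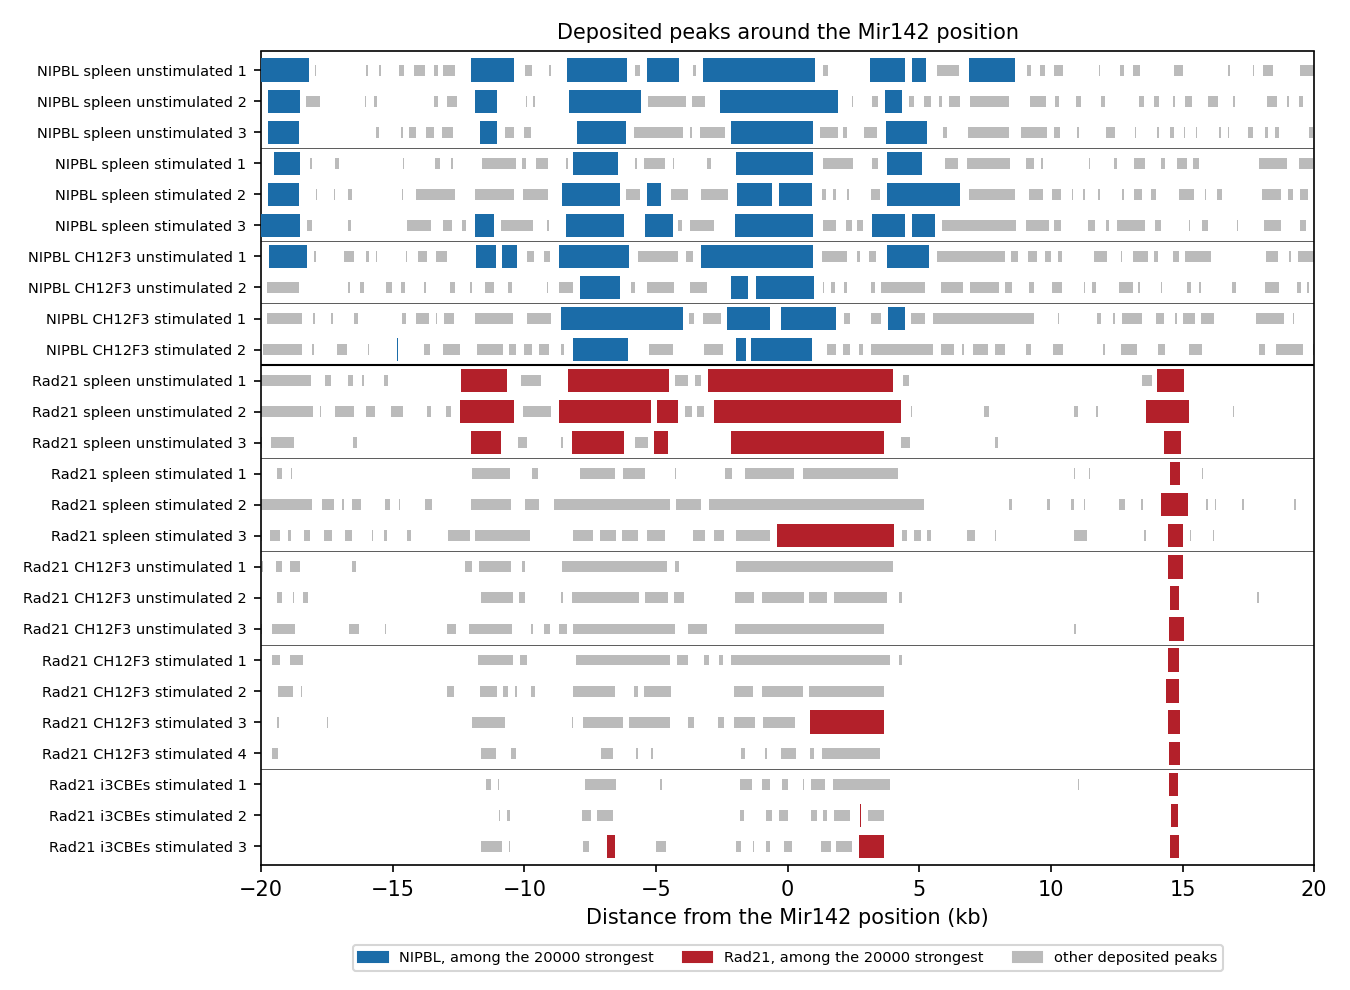
Every deposited peak within 20 kb of the Mir142 position in each of the 26 libraries (rows), by distance in kb; NIPBL top peaks are blue, Rad21 top peaks red, and peaks below the 20000 strongest grey. The Rad21 block across the position is red in the 3 unstimulated splenic libraries and mostly grey elsewhere, whereas the narrow Rad21 site about 15 kb away is red in all 16 Rad21 libraries.

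Along the run, 6 adjoining bins showed the same order of the splenic groups. The bin at 87230001 was covered by Rad21 to 26.8%, 18.9% and 11.9% in unstimulated spleen, and to 0% in all 13 other Rad21 libraries. The bin at 87240001 had 18.8%, 19.4% and 8.52%, against 0%, 0% and 2.36% in stimulated spleen. At 87250001 the values were 17.4%, 22.4% and 12.0%, again with 0% in all 13 other Rad21 libraries. In each of these bins the unstimulated splenic libraries lay above every other Rad21 library.

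The remaining bins of the run held small values in other groups. At 87260001 unstimulated spleen had 29.9%, 13.2% and 18.6%, stimulated spleen 0% in 3 libraries, and CH12F3 up to 7.79%. At 87270001 unstimulated spleen had 21.4%, 16.3% and 17.2%, and the only other covered library was stimulated CH12F3 replicate 3 with 11.0%. At 87280001 unstimulated spleen had 24.0%, 10.1% and 14.1%, and stimulated spleen 0.550%, 0% and 0%. The splenic groups overlapped in no bin of the run, which followed in part from its choice by this contrast. Averaged over its 6 bins, Rad21 coverage was 17.8% ± 4.77 (SD, n = 3) in unstimulated and 0.162% ± 0.206 (SD, n = 3) in stimulated spleen.

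Over both bins at Mir142 the mean was 50.9% ± 8.31 (SD, n = 3) in unstimulated and 7.44% ± 12.9 (SD, n = 3) in stimulated spleen. The difference, stimulated minus unstimulated, was -43.4 percentage points at Mir142 and -17.7 points in the run. Without the stimulated library that stood apart, replicate 2, the difference at Mir142 was -39.7 points. Of 18 interval bins covered in at least 2 splenic Rad21 libraries, 9 had stimulated libraries below all unstimulated ones, a state that 9.76% of the 22603 tested bins of the genome showed. In the same fit limma called 0.128% of all bins higher and 2.69% lower; since this contrast chose the interval, nothing is read from either share. The bin at 87550001, beside the Mir142 bin, was among these 9, with 17.5%, 20.8% and 11.4% against 0% in every stimulated library.

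The ends of the run were chosen from splenic Rad21 losses, so a fall in Rad21 there was partly fixed in advance. The bin just before the run, at 87220001, held no NIPBL top peak. Rad21 covered it to 4.32% ± 1.84 in unstimulated and 3.11% ± 2.12 in stimulated spleen (SD, n = 3 each). The bin just after the run, at 87290001, was covered by top peaks in no library. All deposited NIPBL peaks covered 2.09% to 17.9% of it. At the outer edges of the interval, the bins at 87190001 and 87620001, just outside, held no splenic Rad21 top peak, and the bin at 87200001, just inside, had 6.95% ± 3.05 and 5.33% ± 2.67.

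**Figure D3:**
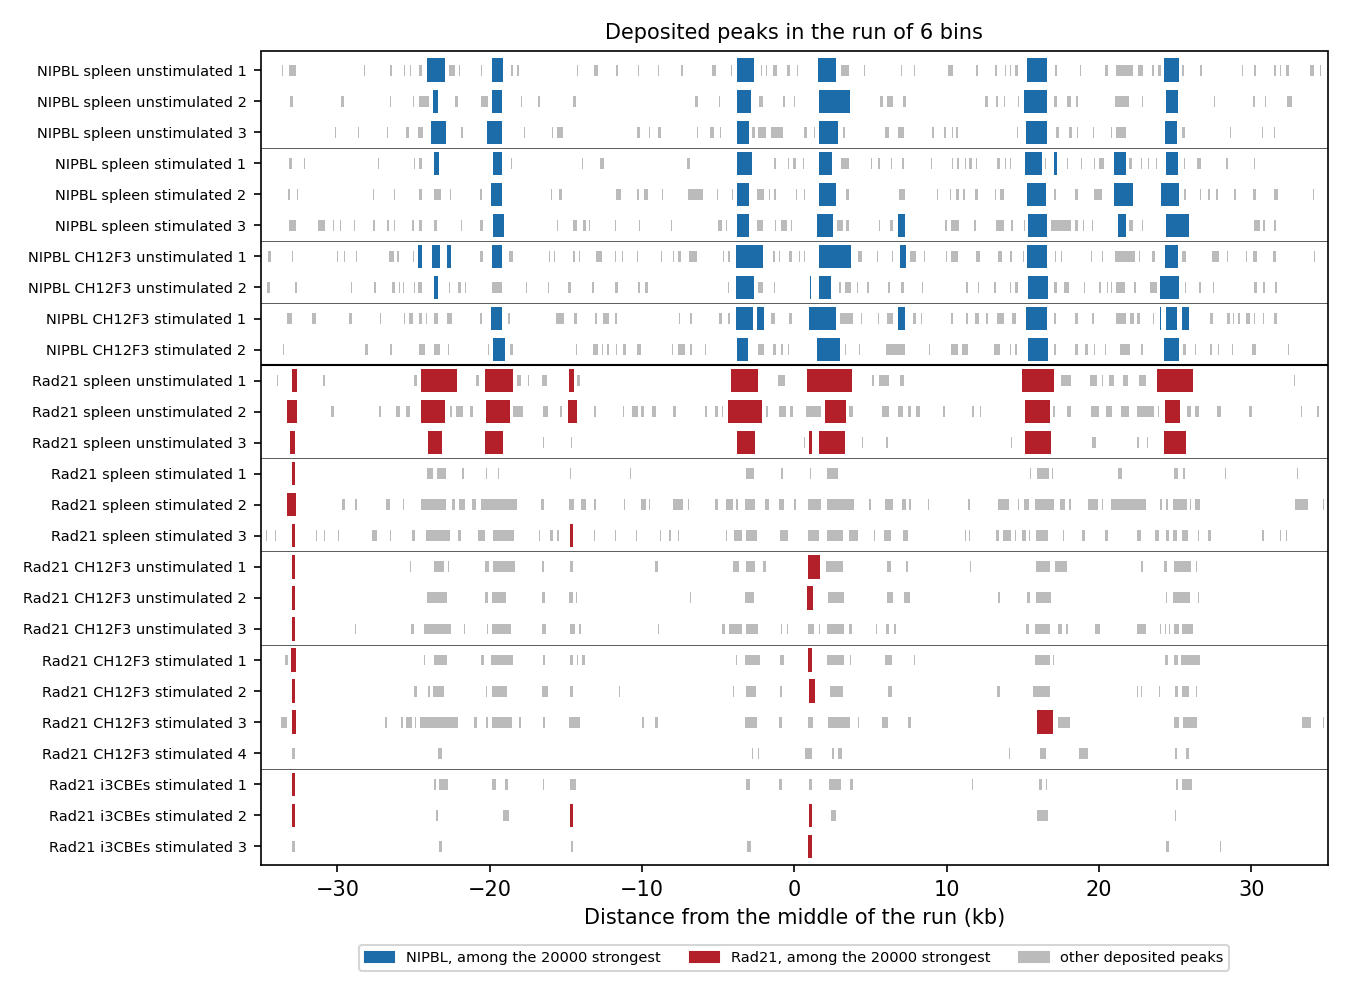
Deposited peaks in and beside the run of 6 bins in each library (rows), by distance in kb from the middle of the run; colours mark NIPBL (blue) and Rad21 (red) peaks among the 20000 strongest, and grey the other deposited peaks. Most NIPBL top peaks recur at the same positions in all groups, and the Rad21 peaks there are red in unstimulated spleen and grey, yet present, in stimulated spleen.

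Counted by site, all 3 unstimulated splenic Rad21 libraries shared 16 sites, of which all 3 stimulated ones also held 7 and none held 8. Sites were merged only within the interval, so no share over the genome stands beside these counts. As this contrast chose the interval, nothing is read from the counts. Of those 8 sites 6 lay in the run, and the other 2 were chr11:87557548-87559720 and chr11:87561322-87566024 beside Mir142. Every one of the 8 was held by some NIPBL library, and 5 by all 10. All 8 still carried a deposited Rad21 peak in each stimulated splenic library. Its rank there was 23737 to 138567 (median 46609.5) with a fold of 3.45 to 5.95, and in unstimulated libraries 5887 to 19222 (median 13369.5) with a fold of 6.61 to 11.8. The 8 sites therefore left the top 20000 in the stimulated Rad21 lists without leaving the lists. These lists differed in length, with 76, 277 and 285 peaks in the interval, and a deposited peak is common in the longer ones. NIPBL at the 8 sites had a median rank of 534.5 and a median fold of 27.8 in unstimulated spleen. In stimulated spleen its median rank was 1654.5 and its median fold 11.2.

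Rad21 was also found at sites that every library held. There were 5 such sites among all 16 Rad21 libraries: chr11:87207143-87208202, chr11:87317521-87318706, chr11:87331805-87333794, chr11:87474436-87477405 and chr11:87583618-87585256. Their median rank was nearer the top of the splenic lists than that of the 8 sites above, with ranks of 237 to 17743 (median 3087) in unstimulated and 295 to 13148 (median 5260) in stimulated spleen. Only the fourth of them was held by any NIPBL library, by 2 from unstimulated spleen.

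The nearest constant site to Mir142, chr11:87583618-87585256, ranked 886 to 1292 in the unstimulated and 295 to 958 in the stimulated splenic lists. In CH12F3 its rank was 2558 to 6185 without and 2587 to 5896 with stimulation, and in i3CBEs 2103 to 3091. Strong Rad21 peaks therefore stood within 15 kb of Mir142 in all groups. The bin that holds it, at 87580001, was covered to 11.0% ± 5.01 in unstimulated and 6.59% ± 3.24 in stimulated spleen (SD, n = 3 each). The bin with the widest constant site, at 87470001, had 20.7% ± 8.45 and 13.6% ± 2.75.

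How much Rad21 the stimulated spleen showed at Mir142 depended on how many peaks were kept. With 10000 peaks per list only unstimulated replicate 3 covered either place, with 9.91% at Mir142 and 13.5% in the run. With 40000 peaks the Mir142 mean was 51.0% ± 8.05 in unstimulated and 40.4% ± 20.5 in stimulated spleen, and the run mean 18.6% ± 5.81 and 1.57% ± 1.42 (SD, n = 3 each). With all deposited peaks both places overlapped between the groups: 58.3% ± 10.0 and 54.7% ± 15.5 at Mir142, and 27.9% ± 11.2 and 22.3% ± 14.0 in the run. The splenic groups were thus apart at Mir142 with 20000 peaks but overlapped with 40000, and in the run they were apart with both.

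**Figure D4:**
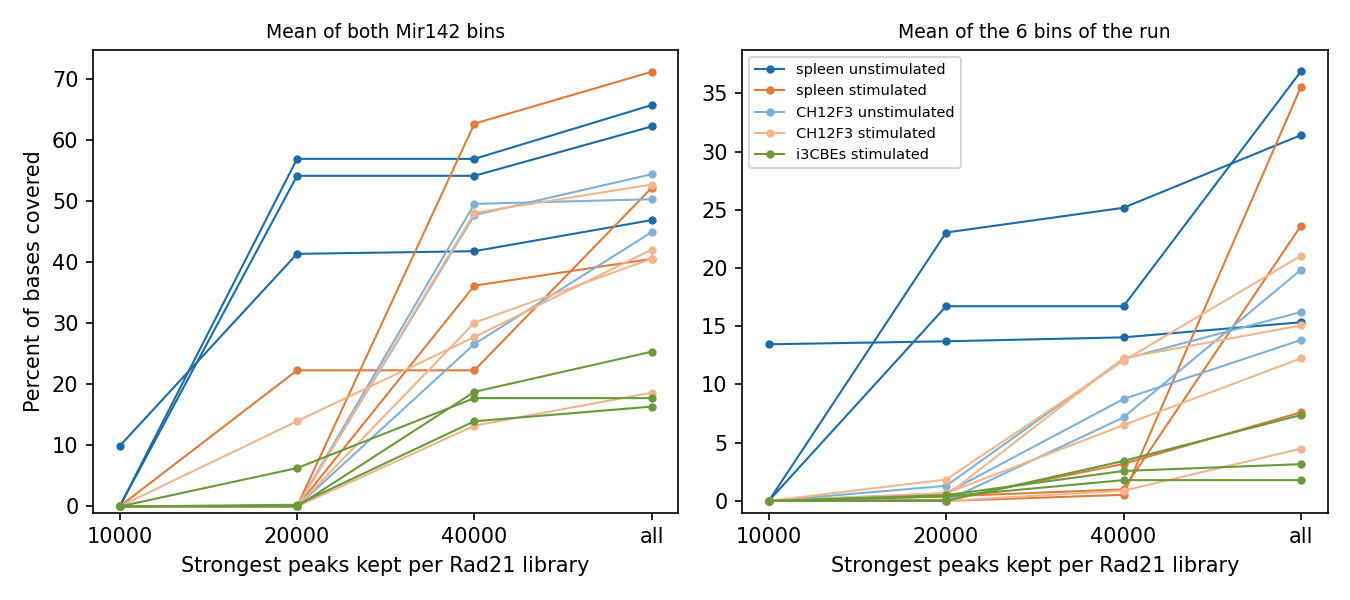
Percent of bases covered by Rad21 at Mir142 (left, mean of both bins) and in the run (right, mean of 6 bins) against the number of strongest peaks kept per library (10000, 20000, 40000 or all); each line is 1 of the 16 Rad21 libraries. Unstimulated splenic lines rise to 41.4% or more at Mir142 by 20000 peaks, and most others rise only from 20000 on.

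NIPBL covered both places in every group, but not every bin of the run. The bin at 87230001 held NIPBL top peaks in 1 of 3 stimulated splenic and 0 of 2 stimulated CH12F3 libraries. In the Mir142 bin NIPBL covered 67.5%, 53.0% and 40.3% in unstimulated and 36.7%, 44.2% and 52.8% in stimulated splenic libraries. In CH12F3 the bin was covered to 59.4% and 33.5% without and to 65.3% and 38.0% with stimulation. All 4 groups overlapped. In spleen the difference, stimulated minus unstimulated, was -9.04 points (SE 7.70, limma adjusted p = 0.628), and in CH12F3 5.12 points (SE 15.1, limma adjusted p = 1).

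In the next bin NIPBL coverage was 32.6% ± 12.4 in unstimulated and 30.2% ± 7.16 in stimulated spleen (SD, n = 3 each), a difference of -2.35 points (SE 6.94, limma adjusted p = 0.938). CH12F3 had 17.8% ± 11.2 and 16.9% ± 10.8 (SD, n = 2 each), a difference of -0.865 points (SE 9.08, limma adjusted p = 1). The run mean of NIPBL was 10.6% ± 0.205 and 10.1% ± 0.593 in unstimulated and stimulated spleen, and 10.7% ± 3.94 and 10.5% ± 2.07 in CH12F3. The run means were not tested. Neither difference in the next bin passed the test, and with 2 or 3 libraries a group a change of the size of the SE is not resolved.

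**Figure D5:**
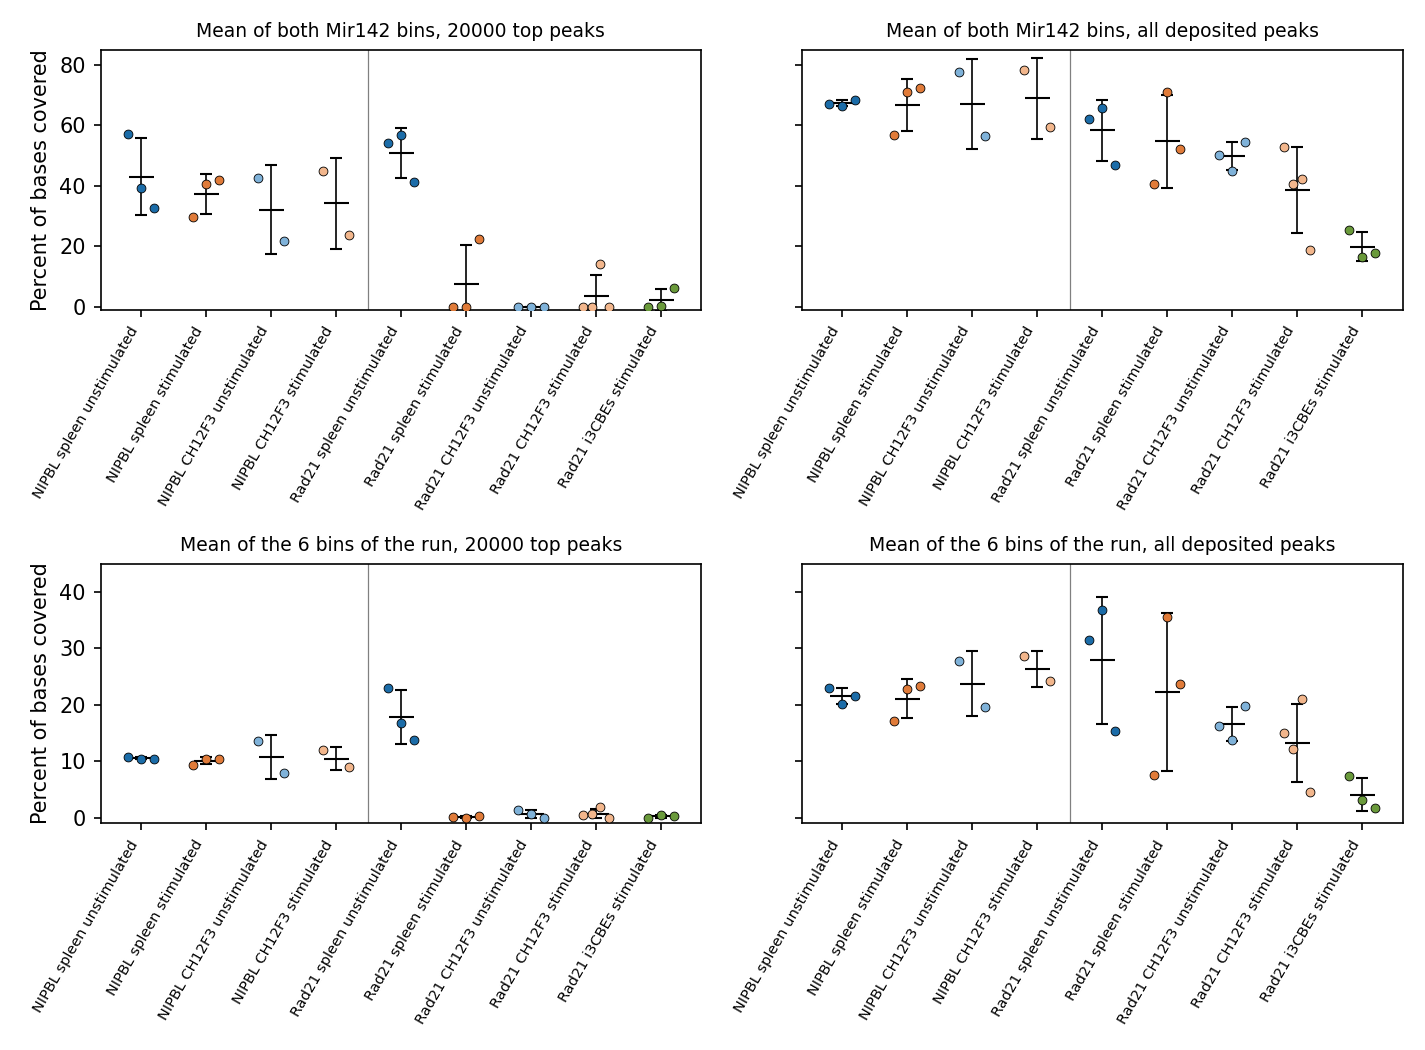
Percent of bases covered at Mir142 (top, mean of both bins) and in the run (bottom, mean of 6 bins) by the 20000 strongest (left) or all deposited peaks (right); points are libraries, and bars the mean and SD of each group. With top peaks, Rad21 in unstimulated spleen (41.4% to 57.0% at Mir142) lies above all other Rad21 libraries, and NIPBL groups overlap at Mir142; with all peaks the splenic Rad21 groups overlap.

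All 10 NIPBL libraries held the same 6 sites, 4 in the run and 2 at Mir142 (chr11:87561322-87566024 and chr11:87566725-87576538), and all 3 unstimulated splenic Rad21 libraries held these 6 as well. The site chr11:87283785-87286188, in the run, was among the strongest NIPBL peaks of any list. Its peak ranked 96, 104 and 76 in unstimulated splenic replicates 1 to 3, with folds of 53.2, 47.3 and 45.9. In stimulated spleen it ranked 374, 542 and 656, with folds of 16.7, 13.2 and 16.0. Rad21 at this site ranked 8473 to 17023 in unstimulated and 25124 to 108050 in stimulated spleen, so within its own lists the loader peak stood near the top and the cohesin peak did not.

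Over the 15 interval bins tested for NIPBL in spleen, limma called none higher and none lower after stimulation at an adjusted p under 0.05, whereas 1.75% of all 18332 bins were called higher and 1.24% lower. With an unadjusted p below 0.05 there was 1 higher and 1 lower bin. The higher bin, at 87280001, had 9.36%, 7.94% and 8.28% in unstimulated and 15.4%, 24.2% and 20.2% in stimulated libraries. These groups did not overlap, as in 7.48% of bins genome-wide, and the difference was 11.4 points (SE 2.37, limma adjusted p = 0.0838). The adjusted p was 0.0244 in limma without stimulated replicate 1, which made it a call. Inside that bin the site chr11:87280996-87282237 was held by all 3 stimulated splenic NIPBL libraries and by no other library. Its peak ranked 3662 to 9472 there, with a fold of 6.49 to 11.1. All 3 unstimulated splenic NIPBL libraries had a deposited peak at the site below their top peaks (rank 24161 to 167330, fold 6.32 to 7.81). Every CH12F3 NIPBL library had one too, ranked 21200 to 368006 without and 179117 to 362376 with stimulation. The site was thus absent from their top peaks, not from their lists. The lower bin, at 87230001, differed by -7.79 points (SE 2.73, limma adjusted p = 0.356), and its groups overlapped. The single bin in which stimulated libraries lay below all unstimulated ones, as 7.65% of bins did, was 87270001, with a difference of -1.51 points (SE 1.19, limma adjusted p = 0.587).

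In CH12F3 no interval bin of the 14 tested for NIPBL was called after stimulation, and 0% of 12315 bins were called in either direction, so the comparison gave no call anywhere. With an unadjusted p below 0.05 the interval held 0 bins, and the genome held 511 that were higher and 777 that were lower. The smallest adjusted p over the genome was 0.353. The interval bin with the smallest unadjusted p was 87230001, with 6.155% ± 4.89 without and 0% with stimulation (SD, n = 2 each). The difference there was -6.155 points (SE 3.12, limma adjusted p = 0.805).

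Rad21 in CH12F3 showed little at Mir142 and in the run among top peaks. In the Mir142 bin all 7 CH12F3 libraries were at 0%, and in the next bin only stimulated replicate 3 was covered, to 28.0%. The difference there was 6.99 points (SE 6.10, limma adjusted p = 0.920), and 0 without that replicate. In the run the mean was 0.654% ± 0.649 without (SD, n = 3) and 0.740% ± 0.784 with stimulation (SD, n = 4). Of 12 bins tested none was called, beside 0% of 22898 called higher and 0.0262% lower (0 bins of the genome with the replicate number as a block). With an unadjusted p below 0.05, 1 bin was lower, at 87470001, with 9.60% ± 3.06 without and 5.46% ± 1.74 with stimulation (difference -4.14 points, SE 1.48, limma adjusted p = 0.765).

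With all deposited peaks, Rad21 in CH12F3 covered 49.9% ± 4.75 at Mir142 without (SD, n = 3) and 38.5% ± 14.3 with stimulation (SD, n = 4). Peaks such as chr11:87568049-87574002 in unstimulated replicate 1 (rank 23970) had nearly the extent of the splenic ones. The Rad21 block at Mir142 was thus present in the line below the top 20000.

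In the 3 i3CBEs libraries, Rad21 top peaks covered 0%, 0% and 2.94% of the Mir142 bin and 0% to 9.65% of the next bin. Against stimulated CH12F3 the next bin differed by -3.59 points (SE 6.10, limma adjusted p = 0.700). None of the 12 bins tested was called, beside 0.179% of all bins called higher and 0.231% lower. In 2 of the 12 all i3CBEs libraries lay below all CH12F3 libraries, a state found in 23.1% of bins genome-wide. The bin with the smallest unadjusted p, at 87330001, had 3.39% in i3CBEs and 7.06% in CH12F3 on average (difference -3.67 points, SE 1.43, limma adjusted p = 0.211). Top peaks of i3CBEs were narrower, with medians of 238, 252 and 281 bp beside 300 to 444 bp in stimulated CH12F3; the part of this in the lower coverage was not tested.

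Between cell types, Rad21 values are a description, since splenic libraries chose the interval. Without stimulation, the splenic minus CH12F3 difference was 50.9 points at Mir142 and 17.2 points in the run. With stimulation it was 3.94 and -0.578 points, and the groups overlapped at both places. Of the 16 sites shared by unstimulated splenic Rad21 libraries, 5 were held by no CH12F3 or i3CBEs library.

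For NIPBL without stimulation, limma called none of the 14 interval bins tested between spleen and CH12F3, with 0 bins also at an unadjusted p under 0.05 and 0% of 16556 bins called in either direction. The Mir142 bin differed by 7.10 points (SE 11.8, limma adjusted p = 0.847) and the next bin by 14.8 points (SE 9.25, limma adjusted p = 0.640). Replicate spread was wide, so differences of this size were not resolved.

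With stimulation, 1 of 13 interval bins was called higher in spleen and none lower, where 20.3% of all 16999 bins were called higher and 1.32% lower. NIPBL covered that bin, at 87210001, to 14.0%, 13.7% and 13.5% in splenic and to 0% and 1.55% in CH12F3 libraries. The difference was 13.0 points (SE 1.07, limma adjusted p = 0.00608), and the splenic top peaks lay at the site chr11:87217513-87219034. With all deposited peaks its sign turned, to -7.66 points, and without splenic replicate 3 or replicate 2 the count of bins called higher was 3 or 2. The share of calls in the interval was no larger than the background. At Mir142 the differences were -7.06 points (SE 10.1, limma adjusted p = 0.685) in the Mir142 bin and 13.3 points (SE 6.73, limma adjusted p = 0.319) in the next bin. Stimulated CH12F3 top NIPBL peaks had median widths of 68 and 51 bp, and splenic ones 442 to 552 bp. Peak names mention a control in the lists of CH12F3 replicate 2 and in no splenic NIPBL list. The part of either in the differences was not tested.

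Where Rad21 and NIPBL lay together was measured as the percent of bases in Rad21 top peaks that NIPBL top peaks also covered, over the 9 pairs of 3 Rad21 and 3 NIPBL libraries. In unstimulated spleen it was 65.4% ± 10.6 at Mir142 and 58.5% ± 11.6 in the run (SD over pairs, which share libraries). Elsewhere in the interval, which includes the site chr11:87557548-87559720, it was 15.5% ± 6.47. In stimulated spleen it was 0% elsewhere in the interval and 0% in the run, there over 6 pairs. The value in the run rested on 1 Rad21 top peak of 55 bp in replicate 1 and 1 of 236 bp in replicate 3. At Mir142, where only replicate 3 of stimulated spleen had Rad21 top peaks, it was 40.3% ± 8.33. In CH12F3 no library had more than 1 Rad21 top peak in the run. The percent there was 9.58% ± 6.74 over 4 pairs without stimulation. With stimulation it was 52.7% ± 43.2 over 6 pairs, from 0% to 100%. Elsewhere in the interval CH12F3 had 3.76% ± 4.55 without and 0% with stimulation. Rad21 at Mir142 and in the run of unstimulated spleen thus lay mostly on NIPBL, and Rad21 elsewhere in the interval mostly did not.

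The profile of the Mir142 bin over the 26 libraries was compared with that of other bins by Pearson's r, as a description. The libraries share antibodies and lists, which shape every profile. They include the splenic Rad21 libraries that chose the interval. Likeness between the run and the Mir142 bin was thus partly fixed by that choice. Within the interval the likest bins were 87250001 (r = 0.946), 87270001 (r = 0.911) and 87260001 (r = 0.888), all in the run, more like it than the adjoining bin at 87550001 (r = 0.800). The constant Rad21 bin at 87580001 had r = -0.108. Among 19766 bins outside the interval, the likest were at chr16:32160001-32170000 (r = 0.954), chr7:117980001-117990000 (r = 0.942) and chr17:27270001-27280000 (r = 0.942).

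The bin on chromosome 16 was covered by Rad21 to 21.9% ± 8.18 in unstimulated spleen (SD, n = 3) and to 0% in all 13 other Rad21 libraries. NIPBL covered it to 22.9% ± 0.136 and 17.7% ± 3.77 in unstimulated and stimulated spleen (SD, n = 3 each). In CH12F3, NIPBL covered it to 11.8% ± 7.55 without and 17.4% ± 9.55 with stimulation (SD, n = 2 each). It therefore had NIPBL in every group, as the Mir142 bin did, and Rad21 top peaks in unstimulated spleen.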

How the data were processed

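Peak lists of 26 libraries were used, 1 per library; 5 input samples were not analysed here. Bowtie2, MACS2 and the build mm9 are named in the submitters' processing notes, with versions not given in the sources used here. For each peak the authors deposited a fold enrichment (a ratio), a -log10 p and -log10 q, and a score of 10 times the -log10 q. Peak names mention a control in every Rad21 list, but among NIPBL lists only in those of CH12F3 replicate 2. The lists hold no counts, so depth is unknown.

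Peaks on the 21 main chromosomes were ranked by -log10 p, the first 20000 of each list were kept, and their coverage of 264200 bins of 10 kb was computed in percent. limma 3.58.1 (R 4.3.3, mean-variance trend) tested every bin that 2 or more fitted libraries covered, p-values were adjusted over all of them by Benjamini-Hochberg, and the threshold was 0.05. Rad21 of CH12F3 and of i3CBEs entered a joint fit; other fits held the compared groups only. Same-numbered unstimulated and stimulated CH12F3 Rad21 libraries had deviations that correlated over bins by 0.423, 0.651 and 0.376, past the 0.1 set for treating numbers as pairs, and a fit with the replicate number as a block was run. Some libraries of other numbers correlated as highly (0.438, 0.358 and 0.607), so the numbers are not singled out as pairs. The test was tested on simulated data. Python 3.11.15, numpy 2.4.6, pandas 2.3.3 and matplotlib 3.10.9 were used.

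The interval, its members, bins and lists were chosen with earlier results of these data known. Any bin of the interval could be named; both bins at Mir142 and the bins of the run were described in full, with sites held by every library of a group of 3 or more and the 3 likest bins elsewhere. The likest bins were sought among bins covered in 10 or more libraries. A planned list of other microRNA genes was not analysed here, for want of an mm9 annotation. Alternatives were other peak numbers or thresholds, equal covered length (5.13 Mb), shifted bins, no filter, covered or not, left-out libraries and the block.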

Additional observations from a re-analysis of the deposited data

Results flagged for a closer look

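Stimulated CH12F3 Rad21, with 4 libraries, was searched for a single library far from the others in 12 bins of the interval, and 4 values stood out. A bin covered in a single library is always flagged by this rule, as at 87270001, 87570001 and 87530001. The count was therefore not compared with chance. Replicate 3 was the only one covered at 87270001 (11.04%) and at 87570001 (27.96%), beside Mir142, where the others were at 0%. Replicate 4 was lowest at 87470001, with 2.86% against 6.19% to 6.54% in the others. Replicate 1 was the only one covered at 87530001, with 2.09%.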

How the results depend on the processing

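Counts of called bins in the interval moved by at most 2. For NIPBL in spleen, 1 bin was higher with 10000 top peaks, and 0 to 1 when libraries were left out (1 without stimulated replicate 1 or 3). For NIPBL in CH12F3, 1 bin was lower when bins were scored as covered or not. With equal covered length, 1 bin was higher in i3CBEs, and 1 in unstimulated spleen against CH12F3 for NIPBL; the latter was 0 to 2 with left-out libraries (2 without unstimulated CH12F3 replicate 1). For NIPBL in stimulated spleen against CH12F3, the 1 bin became 0 with 40000 peaks, all peaks, a -log10 q of 5, equal length and covered or not, 2 with shifted bins, and 1 to 3 with left-out libraries (2 without splenic replicate 2, 3 without replicate 3). The cause was not tested.

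The splenic Rad21 difference at Mir142 (-43.4 points) was -3.65 with all peaks, -3.30 with 10000 or equal length, -10.6 with 40000 and -22.5 with a -log10 q of 5, and -50.9 to -39.7 with left-out libraries. In the run (-17.7) it was -5.62 with all peaks, -4.48 with 10000 or equal length, and -19.7 to -15.1 with left-out libraries. Against unstimulated CH12F3, 50.9 at Mir142 became 8.41 with all peaks, 3.30 with 10000 or equal length, 9.67 with 40000, 31.5 with a -log10 q of 5, 59.1 with shifted bins, and 47.8 to 55.6 with left-out libraries; 17.2 in the run became 11.3, 4.48 and 9.28 with all, 10000 (or equal length) and 40000 peaks, and 14.6 to 19.2 with left-out libraries. With stimulation, 3.94 became 16.2 with all peaks and -3.50 to 7.66 with left-out libraries, and -0.578 turned to 9.05 with all peaks, was -6.36 with 40000, and -0.825 to -0.212 with left-out libraries. With all peaks merged, site counts of 5, 6, 16, 8, 7 and 5 became 14, 42, 37, 0, 31 and 1 (held by all Rad21; all NIPBL; all unstimulated splenic Rad21; those with no and with all stimulated ones; those in no CH12F3 or i3CBEs). Sites shared between stimulated splenic Rad21 libraries went from 70.5% to 61.1% with an overlap of 50%.

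Signs of single bins also turned, none past the threshold. The next bin turned for NIPBL in spleen to 9.77 (10000), 14.3 (40000 and equal length), 6.30 (all) and 4.52 (-log10 q of 5). In CH12F3, NIPBL turned in the Mir142 bin to -1.81, -2.50 and -1.08 (10000, 40000, -log10 q of 5), and in the next bin to 1.40, 1.62, 1.04 and 7.12 (40000, all, -log10 q of 5, equal length). Rad21 in the next bin turned in CH12F3 to -0.794, -4.00 and -8.82 (40000, all, -log10 q of 5). In i3CBEs it turned to 41.7 when scored as covered or not, a difference in the percent of libraries covered, not of bases. NIPBL between unstimulated cell types turned to -0.515 (40000) in the Mir142 bin, and to -0.230 (10000) and -1.92 (all) in the next. With left-out libraries these values spanned -6.00 to 4.81 (NIPBL spleen, next bin), -8.54 to 18.8 and -8.79 to 7.06 (NIPBL CH12F3, Mir142 and next bin), -6.71 to 3.40 (i3CBEs, next bin; 3.40 without stimulated CH12F3 replicate 3), and -5.86 to 20.1 without and -20.7 to 6.59 with stimulation (NIPBL cell types, Mir142 bin). The called bin at 87210001 turned to -7.66 (all) and -4.75 (-log10 q of 5).

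With the number as a replicate block, 0 interval bins were called in each of the 4 tested comparisons run with it, as without it; splenic Rad21, which is not tested, is not among them. Over the genome the block took NIPBL calls in spleen from 321 higher and 227 lower to 0, and i3CBEs calls from 41 and 53 to 5 and 2. Numbers did not pair NIPBL splenic libraries (correlations of -0.099, -0.018 and -0.038). For i3CBEs with stimulated CH12F3, number 1 correlated by 0.107, just past the 0.1 set, and numbers 2 and 3 by 0.005 and -0.078. Libraries of other numbers, i3CBEs 3 and CH12F3 4, reached 0.126, so the numbers are not singled out as pairs. For NIPBL in CH12F3 the titles number 1 library a group, and the block, added after seeing the data, set the unnumbered libraries against those numbered 2 (correlation of 0.313); its limma adjusted p was 0.757 in the Mir142 bin and 0.942 in the next.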
